A study of Mus musculus with 6 samples.

Results

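The 8 genes Ank1, Ank2, Ank3, Sptan1, Sptbn1, Sptbn4, Nfasc and Nrcam encode ankyrins, spectrins and adhesion molecules of axon segments. They were chosen by name, and every entry under their GENCODE M21 identifiers was taken from the event lists of 6 RNA sequencing libraries of the nucleus accumbens (NAc). An event is a place where the assembled transcripts of a gene differ, and it belonged to 1 of 4 families. Exon skipping covers exons that are left out, and intron retention covers introns that are kept. Alternative exon ends cover exons with a second start or end, and transcript ends cover the starts and ends of transcripts. After the included and skipped entries of an event were merged, the 8 genes had 187 of the 132823 events listed for 16154 genes.

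The NAc is a ventral striatal region of the reward circuit. Adult male mice of the C57BL/6N strain underwent place preference training with morphine injections (morphine group, 3 libraries) or with saline injections alone (saline group, 3 libraries), and the study asked which RNAs differed in the NAc afterwards. In this training an animal learns to link a compartment with an injection, and mice of the morphine group also received saline in alternate sessions. The sources differ on whether a library held the tissue of 1 mouse or of pooled mice, and no label says how libraries relate to animals, so the p-values below measure the spread between these libraries. The tissue held many cell types. All 9 marker genes of striatal projection neurons and all 3 general neuron markers were listed in all 6 libraries, as were the 6 oligodendrocyte, 4 astrocyte, 3 microglia, 3 erythroid and 2 ventricle lining markers. Of the 2 endothelial markers, Pecam1 was listed and Cldn5 was not. The lists hold no expression level, so a change in the number of cells of a type and a change in RNA per cell cannot be told apart here.

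Ankyrins are adaptor proteins that tie membrane proteins to spectrin, and spectrins are long alpha and beta chains that form a lattice under the plasma membrane. At the axon initial segment, where action potentials start, ankyrin-G (the product of Ank3) gathers sodium channels, beta-IV spectrin (Sptbn4) and the adhesion molecules neurofascin (Nfasc) and NrCAM (Nrcam). The same proteins are found at nodes of Ranvier. Neurons make very long forms of ankyrin-G and of ankyrin-B (Ank2), each of which carries a giant exon between the spectrin-binding part and the C-terminal part of the protein. Ankyrin-R (Ank1) is best known from red blood cells and is also made by some neurons.

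Libraries held 54660 to 62209 events over all genes, and their relative depth was 1.0 to 1.59 with saline library 1 set to 1. Of the 187 events, saline libraries 1, 2 and 3 listed 95, 97 and 87, and morphine libraries 1, 2 and 3 listed 123, 92 and 118. Morphine libraries 1 and 3 listed the most. They listed 27 and 24 events of these genes that no other library had, which was 22.0% and 20.3% of their events in the 8 genes. In the other 4 libraries this share was 1.15% to 7.22%. Over all genes it was 23.2% and 17.9% in morphine libraries 1 and 3, and 15.8% to 20.5% in the other 4. The share of the 8 genes was thus near that of all genes in morphine libraries 1 and 3, and below it in the other 4. When only events listed in at least 2 libraries were counted, the 6 libraries held 86 to 96 events of the 8 genes.

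**Figure D1:**
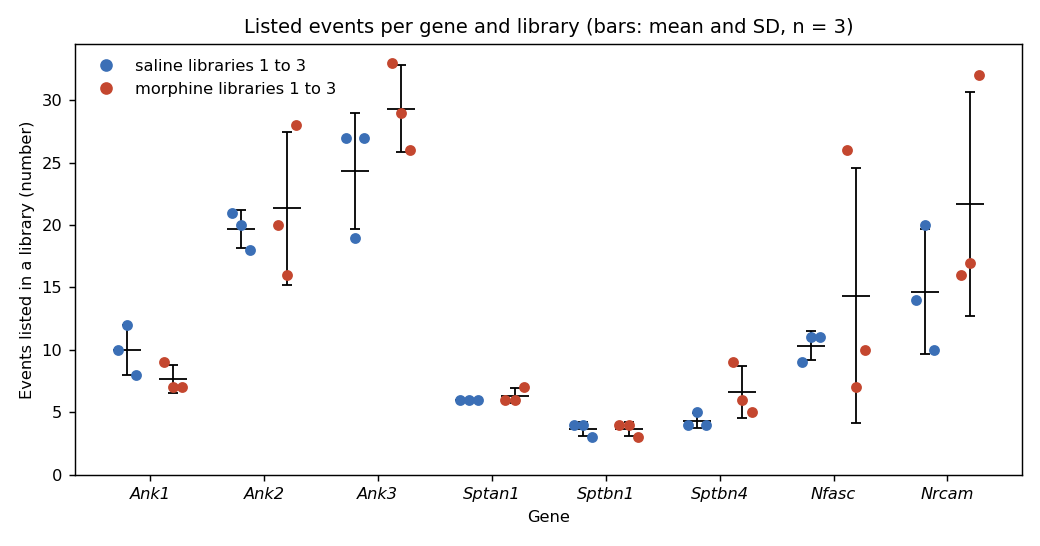
Number of listed events (y axis) of each of the 8 genes (x axis) in each library. Points are libraries, saline in blue and morphine in red, and bars give the mean and SD (n = 3). The groups overlapped for every gene, and the high points of Nfasc (26 events) and Nrcam (32 events) were single libraries, morphine 1 and morphine 3.

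The ankyrin genes Ank3 and Ank2 were the most event-rich of the 8 next to Nrcam. Ank3 (ENSMUSG00000069601, chr10:69398773-70027438, plus strand, GRCm38) had 40 events over the libraries, of which 16 were listed in all 6. Ank2 (ENSMUSG00000032826, chr3:126921612-127499350, minus strand) had 36 events, 14 of them in all 6 libraries. By their mean number of events, 0.223% of the listed genes had as many as Ank3 or more, and 0.52% as many as Ank2 or more. These are also long genes. Of the listed genes, 0.874% were at least as long as Ank3 and 1.04% at least as long as Ank2.

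Both ankyrin genes had a giant exon that was listed as skipped, and thus also as included, in all 6 libraries. In Ank2 it was a single exon of 6198 bases, chr3:126941610-126947807. In Ank3 the giant exon was listed in 3 forms in every library. The longest, chr10:69986089-69993762, had 7674 bases. A form of 2550 bases, chr10:69986083-69988632, began 6 bases upstream of the longest form and ended within it. A form of 6393 bases, chr10:69986083-69992475, had the start of the 2550-base form and was no annotated exon in GENCODE M21, although the junction that skips it was annotated. The form with the upstream start and the far end, 7680 bases in length, was listed in saline libraries 1 and 2 and in morphine libraries 1 and 2. The 3 constant forms of Ank3 and the Ank2 exon took ranks 2, 3, 4 and 9 by length among the 2135 single cassette exons of all genes that every library listed. A single cassette exon is one that is included or skipped on its own. The giant exons of Ank2 (6198 bases) and Ank3 (7674 and 2550 bases) were whole numbers of codons. They lie within annotated coding sequence, so the lack of a stop codon in frame follows from the annotation.

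The ends of the Ank3 giant exon region varied between libraries in a fixed combination. A set of 8 Ank3 events was listed in saline library 1 and morphine libraries 1 and 2, and in no other library. It held the retention of the intron between the giant exon and the next exon, counted from each of its 3 ends (5739, 1896 and 609 bases). It also held an exon of 8364 bases that ran through this intron, chr10:69986083-69994446, and a transcript that ended in an exon starting at the giant exon. Another 6 Ank3 events were listed in saline library 3 and morphine library 3 alone. They held the skipping of the 3 constant giant exon forms with other flanking exon ends, an exon at chr10:69982116-69982197 with a shorter form that ended 36 bases earlier, and a transcript start at 69926191. Neither set followed the treatment.

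A further set of short exons in Ank2 and Ank3 was listed as skipped in all 6 libraries. An Ank2 exon and an Ank3 exon of this set formed a pair. Another Ank3 exon of the set was paired with an Ank2 exon that only 2 libraries listed. The exons are printed below with 15 bases of the neighbouring exons on each side, since exons were paired by the likeness of these neighbours. All were read from GENCODE M21 transcripts, 5′ to 3′ on the coding strand, with the exon in capitals and the neighbouring exons in lower case. A pair was formed where each exon was the best match of the other, among the exons of both genes, by 60 neighbouring bases, 30 on each side. Both also had to be coding single cassette exons listed in at least 2 libraries, so that both are skipped follows from the rule. The first pair is an exon of 36 bases in Ank2, chr3:126971003-126971038, and an exon of 33 bases in Ank3, chr10:69953440-69953472.
Ank2 36-base exon: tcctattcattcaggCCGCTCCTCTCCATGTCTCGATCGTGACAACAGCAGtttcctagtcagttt
Ank3 33-base exon: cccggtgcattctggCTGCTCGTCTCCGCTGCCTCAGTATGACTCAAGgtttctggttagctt

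The neighbours of this pair were alike at 39 of 60 bases, and the exons at 24 of 36 bases. Both exons were listed in all 6 libraries. The cassette exons of Ank2 and Ank3 without a pair had a best match in the other gene with 26 to 48 of 60 neighbouring bases alike, the highest among the repeated 99-base exons, so likeness of neighbours alone does not set the pairs apart. The second pair consists of an exon of 24 bases in each gene. It lies in Ank3 at chr10:69823078-69823101 and in Ank2 at chr3:127052226-127052249, among the exons of the ankyrin repeats that bind membrane proteins.
Ank3 24-base exon: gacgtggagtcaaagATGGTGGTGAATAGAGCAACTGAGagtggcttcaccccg
Ank2 24-base exon: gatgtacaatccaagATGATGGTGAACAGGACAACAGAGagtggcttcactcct

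Here 45 of 60 neighbouring bases and 19 of 24 exon bases were alike. The Ank3 exon was listed as skipped in all 6 libraries and the Ank2 exon in morphine libraries 2 and 3 alone.

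Ank2 and Ank3 shared an alternative acceptor as well, that is, a second start of an exon. An exon of 88 bases was listed in both genes, in all 6 libraries, with a longer form of 103 bases. In Ank2 the short form was chr3:126976845-126976932 and the 15 extra bases were chr3:126976933-126976947. In Ank3 the short form was chr10:69932409-69932496 and the 15 extra bases were chr10:69932394-69932408. The sequences below show the extra bases in capitals, the end of the exon before them and the start of the short form after them in lower case.
Ank2 acceptor: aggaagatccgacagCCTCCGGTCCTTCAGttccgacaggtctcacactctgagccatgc
Ank3 acceptor: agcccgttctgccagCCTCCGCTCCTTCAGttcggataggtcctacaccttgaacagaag

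The extra bases were alike at 14 of 15 positions. The 88 bases of the short form were alike at 56 positions, and the neighbouring exons at 23 of 60, below the range of the unpaired exons.

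The remaining constant cassette exons of the ankyrins had no listed partner by this rule, and this held for the giant exons too. The best match of the Ank2 giant exon in Ank3 had 28 of 60 neighbouring bases alike. For the Ank3 forms of 7674 and 2550 bases the best match in Ank2 had 26 of 60. Besides the giant exons, they were in Ank2 an exon of 183 bases near the 3′ end of the gene, chr3:126928665-126928847, and 3 exons of 99 bases. The first of these, chr3:127012673-127012771, is 1 of the repeated exons of the ankyrin repeat region, many of which have this length. The next, chr3:126963383-126963481, lies further downstream, and the last, chr3:127248134-127248232, lies near the 5′ end of a shorter annotated transcript. In Ank3 they were an exon of 63 bases, chr10:69904448-69904510, and an exon of 27 bases, chr10:69980824-69980850. These are shown because they are the short exons of Ank3 that every library both included and skipped.
Ank3 63-base exon: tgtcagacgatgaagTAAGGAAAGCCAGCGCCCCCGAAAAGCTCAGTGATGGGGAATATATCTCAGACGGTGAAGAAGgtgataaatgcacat
Ank3 27-base exon: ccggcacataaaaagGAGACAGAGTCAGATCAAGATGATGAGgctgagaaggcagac

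Both exons kept the reading frame. That they hold no stop codon in frame follows from their place within an annotated coding sequence. The exon that follows the 63-base exon, an exon of 54 bases at chr10:69920438-69920491, was listed as skipped in saline library 3 and morphine libraries 1 and 2. Further alternative exon ends of Ank3 lay downstream of the giant exon, where an exon of 91 bases, chr10:70002511-70002601, had a longer form of 679 bases, chr10:70001923-70002601, in all 6 libraries. By its neighbours, the best match in Ank1 of both the 63-base and the 54-base exon was an exon of 24 bases, chr8:23110347-23110370, with 37 of 60 bases alike, and saline library 1 alone listed it as skipped. A block of 23 or 24 exons of Ank3, chr10:69808416-69932496, was listed as skipped in morphine library 1 alone.

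The ankyrin genes had several transcript starts in the lists. These are the starts of assembled transcripts, and whether each was in use in the tissue was not tested. A start is given here by the inner, spliced end of the first exon, since the outer end moves with coverage. Ank2 had 10 starts, 2 of them on the opposite strand, and 6 were listed in all 6 libraries. They lay at 127498668, 127408845, 127339132, 127225764, 127161679 and 126998324, and 5 of them matched an annotated first exon. The other, at 127339132, was the inner end of an exon of 61 bases that was also listed as an internal cassette exon in saline libraries 1 and 2 and morphine libraries 1 and 3. Ank3 had 6 starts and 2 of them, at 69534284 and 69706925, were listed in all 6 libraries. Starts within the gene at 69898139 and 69899089 were listed in saline library 3 and morphine libraries 1 and 3.

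**Figure D2:**
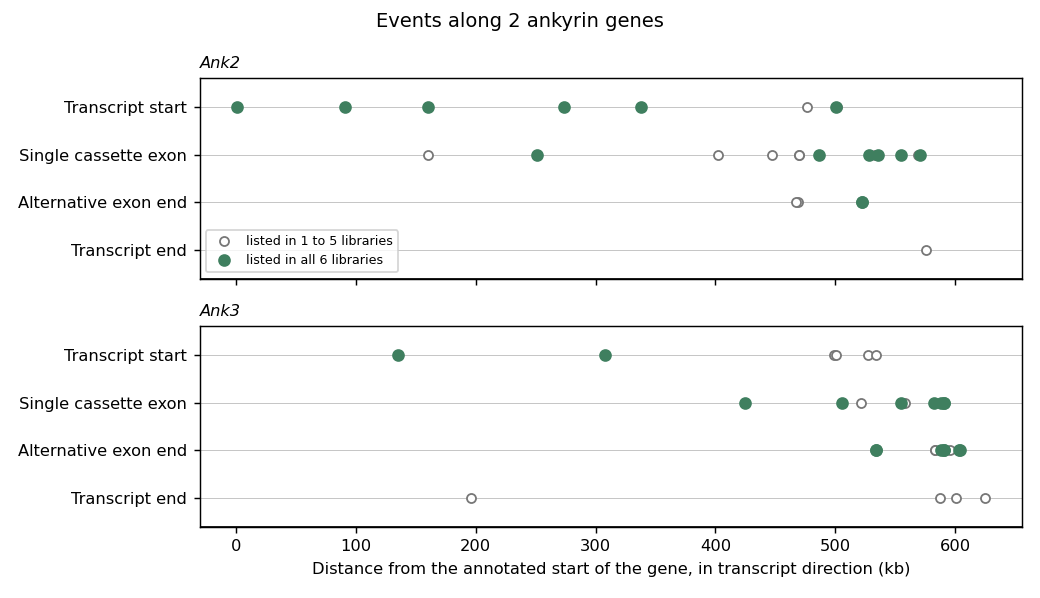
Events along Ank2 and Ank3 on the strand of the gene, as distance in kb from the annotated start of the gene (x axis) by kind of event (y axis). Filled points were listed in all 6 libraries and open points in fewer. Ank2 has 6 filled transcript starts and Ank3 has 2, and the giant exons lie in the last part of both genes.

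Ank1 (ENSMUSG00000031543, chr8:22974844-23150497, plus strand) had 16 events, 3 of them in all 6 libraries. Of these, 8 lay at a pair of exons at chr8:23132097-23132634. The short intron between them, with 78 bases between 23132483 and 23132562, was listed as retained in all 6 libraries and was the only constant retained intron of the 8 genes. The same intron with an earlier start, of 90 bases, was listed in 5 libraries, without saline library 1. The exon upstream of it, chr8:23132097-23132483 with 387 bases, was listed as skipped in saline libraries 1 and 2 alone. So were the alternative ends of the exons chr8:23132097-23132634 and chr8:23132562-23132634, a long and a short form with the same end. The long form spans the 78-base intron, whose retention all 6 libraries listed. Ank1 had starts in all 6 libraries at 22975261 and 23058670, both annotated. Another start at 23139495, close to the 3′ end of the gene, was listed in the 3 saline libraries and in morphine library 1.

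The spectrin genes had few events. Sptan1 encodes alpha-II spectrin, the alpha chain of neurons, and lies at chr2:29965560-30031451 on the plus strand (ENSMUSG00000057738). It had 7 events, and 6 of them were listed in all 6 libraries. Each library listed 6 events except morphine library 3, which listed 7. The 4 cassette exons had 51, 60, 15 and 63 bases, at chr2:29968776-29968826, chr2:30001100-30001159, chr2:30014158-30014172 and chr2:30028644-30028706. The first lies partly outside the coding sequence, and the other 3 are shown because every library both included and skipped them in the coding sequence.
Sptan1 60-base exon: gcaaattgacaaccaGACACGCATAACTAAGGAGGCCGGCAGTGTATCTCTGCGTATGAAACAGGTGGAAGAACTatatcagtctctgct
Sptan1 15-base exon: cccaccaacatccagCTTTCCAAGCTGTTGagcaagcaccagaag
Sptan1 63-base exon: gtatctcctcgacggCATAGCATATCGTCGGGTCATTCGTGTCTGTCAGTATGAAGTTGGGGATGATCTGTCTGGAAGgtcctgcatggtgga

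The 15-base exon was the shortest single cassette exon of the 8 genes that was listed in every library. Sptan1 had 1 constant start, at 29965785, and 1 constant end, at 30030971. It had no retained intron and no alternative exon end in any library.

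Sptbn1 encodes beta-II spectrin, the widespread beta chain (ENSMUSG00000020315, chr11:30099395-30268175, minus strand). Its events numbered 6 over the libraries, and on its own strand they were all transcript starts or ends. The only skipped exon under its identifier, 56 bases in saline library 1, lay on the opposite strand outside the annotated gene. The start at 30267948 was listed in all 6 libraries. The start at 30267013 and the end at 30100714 were listed in 5, without saline library 1. Sptbn4 encodes beta-IV spectrin, the beta chain of the axon initial segment and nodes (ENSMUSG00000011751, chr7:27356383-27447686, minus strand). It had 10 events and no skipped exon. Its starts at 27446463 and 27396489 and its end at 27357450 were listed in all 6 libraries. The start at 27396489 lay inside the gene and matched an annotated first exon. An intron of 873 bases between 27364690 and 27365564 was listed as retained in 5 libraries, without saline library 2. An unannotated start at 27416705 was listed in morphine libraries 1 and 2.

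Nfasc and Nrcam encode neurofascin and NrCAM, cell adhesion molecules of the L1 family that bind ankyrins with their intracellular tail. Nfasc (ENSMUSG00000026442, chr1:132564690-132741797, minus strand) had 29 events, 7 of them in all 6 libraries and 17 in only 1. Nrcam (ENSMUSG00000020598, chr12:44328885-44601964, plus strand) had 43 events, the most of the 8 genes, 9 of them in all 6 libraries and 24 in only 1. A pair of short exons near the 5′ end of the coding sequence was listed in all 6 libraries, with 18 bases in both genes, at chr1:132637864-132637881 and chr12:44535057-44535074. A second pair, an exon of 36 bases in Nrcam at chr12:44578145-44578180 and an exon of 15 bases in Nfasc at chr1:132593351-132593365, lies further downstream. Both pairs are printed in the same way as for the ankyrins, together with the other short coding exons that every library listed in these genes.
Nfasc 18-base exon: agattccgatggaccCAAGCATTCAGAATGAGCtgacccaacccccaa
Nrcam 18-base exon: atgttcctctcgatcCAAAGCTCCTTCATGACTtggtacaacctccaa
Nrcam 36-base exon: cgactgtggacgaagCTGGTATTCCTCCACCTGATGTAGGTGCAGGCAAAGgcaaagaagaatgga
Nfasc 15-base exon: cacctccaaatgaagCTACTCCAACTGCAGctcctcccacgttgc
Nrcam 30-base exon: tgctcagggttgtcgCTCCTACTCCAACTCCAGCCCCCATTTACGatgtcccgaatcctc
Nfasc 45-base exon: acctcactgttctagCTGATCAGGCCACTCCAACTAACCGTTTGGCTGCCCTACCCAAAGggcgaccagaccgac

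In the 18-base pair, 37 of 60 neighbouring bases and 9 of 18 exon bases were alike. In the second pair, 31 of 60 neighbouring bases and 14 of 36 exon bases were alike. For the cassette exons of Nfasc and Nrcam without a pair, the best match had 25 to 28 of 60 neighbouring bases alike, close to the value of the second pair. The Nrcam exon of 36 bases was listed in all 6 libraries, and the Nfasc exon of 15 bases as a single cassette exon in saline library 3 and morphine library 1. The Nrcam exon of 30 bases lies at chr12:44566840-44566869 and the Nfasc exon of 45 bases at chr1:132607003-132607047, and they were not the best match of each other. A coding exon of 51 bases of Nfasc, chr1:132627872-132627922, was listed in 5 libraries, without morphine library 2. The constant exon of 109 bases at chr1:132665479-132665587 lies outside the coding sequence of Nfasc and was the only constant cassette exon of the 8 genes whose length was no multiple of 3.

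Both adhesion genes also had neighbouring exons that were skipped together. In Nfasc a block of 2 exons with 205 and 116 bases, chr1:132597765-132600214, was listed in all 6 libraries. Neither exon length is a multiple of 3, but their sum of 321 bases is. A block of 4 exons of Nfasc with 153, 117, 237 and 15 bases, chr1:132582995-132593365, was listed in saline libraries 2 and 3 and morphine libraries 1 and 3, and its sum of 522 bases is a multiple of 3. In Nrcam the exons of 36 and 153 bases were skipped together, 189 bases in 5 libraries within chr12:44578145-44584987. A block with these outer ends was listed in all 6 libraries, and other sets of exons within it in 1 library each. The exon of 153 bases, chr12:44584835-44584987, was listed as a single cassette exon in 5 libraries. Saline library 2 and morphine libraries 2 and 3 listed it with other flanking exon ends. Morphine library 3 was the only library to list a longer exon in its place, chr12:44583667-44584987, which had 1321 bases and took in the intron before it. Starts listed in all 6 libraries were at 132741671 and 132707099 in Nfasc and at 44329096 in Nrcam. Both genes had 1 transcript end in the lists, at 132570651 and 44598350, and every library listed it.

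Sharing between libraries differed by event family, and single cassette exons were shared most. Of the 42 single cassette exons of the 8 genes, 24 (57.1%) were listed in all 6 libraries, with a 95% Wilson interval of 42.2% to 70.9%. Over all genes the share was 24.2% of 8834. The 24 exons belonged to Ank3 (7), Ank2 (6), Sptan1 (4), Nrcam (4) and Nfasc (3), and Ank1, Sptbn1 and Sptbn4 had none. For exon skipping of every class, 44.4% of 63 events were in all 6 libraries, against 19.7% over all genes. For alternative exon ends it was 27.3% of 33 events, against 9.09%, and for transcript ends 36.2% of 58 events, against 29.8%. The alternative exon ends in all 6 libraries all lay in Ank2 and Ank3, as longer and shorter forms of a few exons. Retained introns were shared least, with 3.03% of 33 events in all 6 libraries, against 1.7% over all genes. Events of a gene share their transcripts, so the intervals cover counting error only. How far expression level takes part in these shares was not tested, since the lists hold none.

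**Figure D3:**
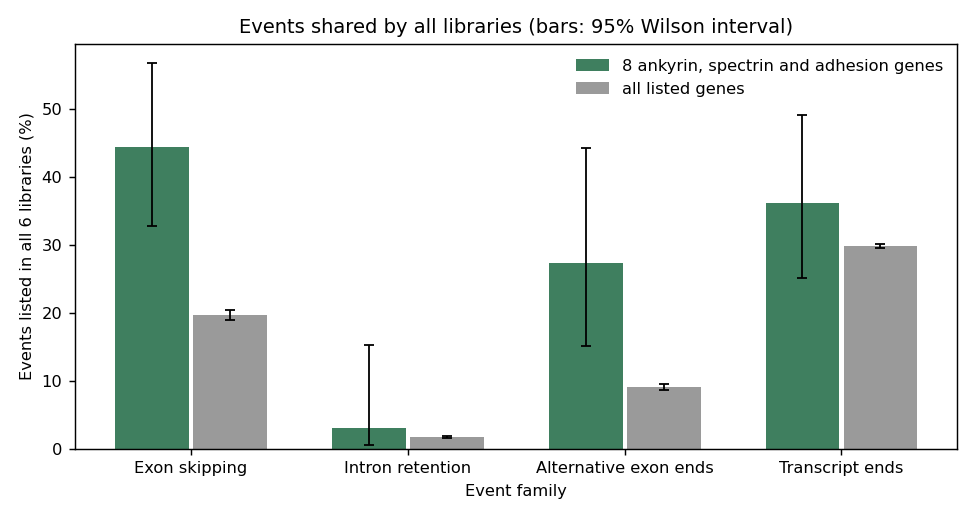
Share of events that were listed in all 6 libraries (y axis, percent) by event family (x axis), for the 8 genes in green and for all listed genes in grey. Bars carry the 95% Wilson interval, and exon skipping had the highest share in the 8 genes (44.4%) and intron retention the lowest (3.03%).

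The lengths of the 24 constant single cassette exons were compared with those of all genes. In 23 of the 24 (95.8%) the length was a multiple of 3, and over all genes it was 69.6% of 2135. The exons of all genes were not limited to coding ones. Of the 18 single cassette exons listed in 1 to 5 libraries, 15 (83.3%) were multiples of 3, against 45.3% of 6699 over all genes. The median length was 61.5 bases, against 87.0 bases over all genes. Exons of at most 27 bases made up 5 of the 24 (20.8%, against 7.54% over all genes), and exons of at least 1000 bases made up 4 (16.7%, against 1.03%). Of these 4, 3 are overlapping forms of the same Ank3 giant exon, so they stand for 2 places. Of the 24 exons, 23 were annotated exons, all 24 had an annotated junction that skips them, and 20 were coding over their whole length in an annotated transcript. These 20 coding exons hold no stop codon in frame, which follows from their place within an annotated coding sequence. These are counts without a test, since the genes were chosen with earlier results of these lists known.

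**Figure D4:**
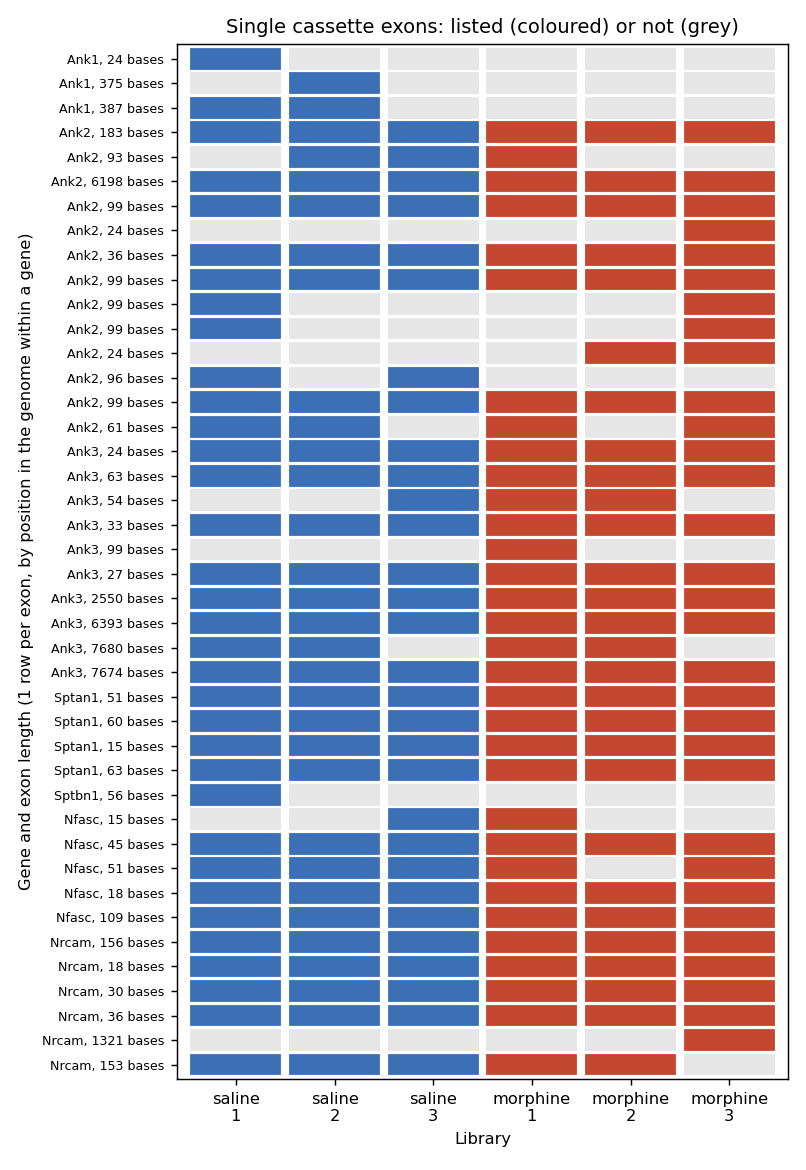
Single cassette exons of the 8 genes (rows, with gene and length in bases) in the 6 libraries (columns). Coloured cells mark libraries that listed the exon as skipped, blue for saline and red for morphine, and grey cells those that did not. The 24 exons listed in every library form rows without grey, and no row is coloured throughout 1 group and grey throughout the other.

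The comparison of the morphine group with the saline group asked whether the number or the choice of events differed after training. No gene of the 8 had event counts without overlap between the groups. Over all families, 0 of 8 genes had all 3 morphine libraries above all 3 saline libraries, against 1.8% of the 16154 listed genes. All 3 morphine libraries below was found in 0 of 8, against 0.966% of the listed genes. By family, groups without overlap in either direction were found in 0 of the members for exon skipping (2.05% of all genes with such events), for intron retention (2.96%), for alternative exon ends (1.84%) and for transcript ends (1.49%). The exact permutation test of 3 against 3 libraries gives no p under 0.1, so no gene could reach an unadjusted p under 0.05, and all adjusted p of the 8 genes were 1.0 (Benjamini-Hochberg over all listed genes).

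Ank3 had 27, 19 and 27 events in saline libraries 1, 2 and 3 and 33, 29 and 26 in morphine libraries 1, 2 and 3. Mean and SD over 3 libraries were 24.3 ± 4.62 in the saline and 29.3 ± 3.51 in the morphine group (two-sided exact permutation test, p = 0.3). The gap was smaller than that between the lowest and the highest saline library, 19 and 27. The difference of 5.0, morphine minus saline, fell to 2.33 if saline library 2 was left out and to 3.17 if morphine library 1 was. The ranges overlapped through morphine library 3, which lay below saline libraries 1 and 3. Ank1 had 10, 12 and 8 events in saline and 9, 7 and 7 in morphine, a difference of the means, morphine minus saline, of -2.33 (exact permutation test, n = 3, p = 0.2) that was -1.33 without saline library 2. Sptbn4 had 4, 5 and 4 events in saline and 9, 6 and 5 in morphine, with means of 4.33 ± 0.577 and 6.67 ± 2.08 (SD, n = 3, exact permutation test, p = 0.2). The difference of 2.33 was 1.17 without morphine library 1. In Ank1 and Sptbn4 a single pair of libraries kept the groups from separating, with equal counts in Sptbn4 and with saline library 3 below morphine library 1 in Ank1. Sptbn1 had 4, 4 and 3 events in both groups.

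In Nfasc, Nrcam and Ank2 the highest count came from 1 library. Nfasc had 9, 11 and 11 events in saline and 26, 7 and 10 in morphine, and the difference of the means, morphine minus saline, was 4.0 (exact permutation test, p = 0.9). Without morphine library 1 it was -1.83. Nrcam had 14, 20 and 10 events in saline and 16, 17 and 32 in morphine, a difference of 7.0 (exact permutation test, p = 0.4) that was 1.83 without morphine library 3. Ank2 had 21, 20 and 18 events in saline and 20, 16 and 28 in morphine, a difference of 1.67 (exact permutation test, p = 0.9) that was -1.67 without morphine library 3.

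Of the 68 events that a single library listed, 20 were transcript ends, 20 were retained introns, 15 were alternative exon ends and 13 were skipped exons. The retained introns of Nfasc and Nrcam came mostly from 1 library each. The 33 intron retention events lay at 25 distinct spans, since a span can be listed in several classes, and 20 of the 33 (60.6%) were listed in only 1 library, against 67.5% over all genes. Nfasc had 1, 0 and 0 such events in saline and 10, 0 and 0 in morphine. The 10 events of morphine library 1 lay at 7 spans of 1116 to 7946 bases within 28133 bases of the 3′ part of the gene, from 132573839 to 132601971, and 9 of them were in no other library. Nrcam had 1, 4 and 0 in saline and 0, 1 and 11 in morphine. In morphine library 3 they lay at 8 spans of 483 to 6886 bases between 44544895 and 44584835, and 6 of the 11 were in no other library. Of the 4 events of saline library 2, all lay in the same stretch of Nrcam. Over all genes, intron retention events numbered 9534 in morphine library 1, the most of the 6, and 6432 in morphine library 3, within the range of 5409 to 7925 of the saline libraries. The part of RNA quality or of unspliced RNA in these events was not tested.

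**Figure D5:**
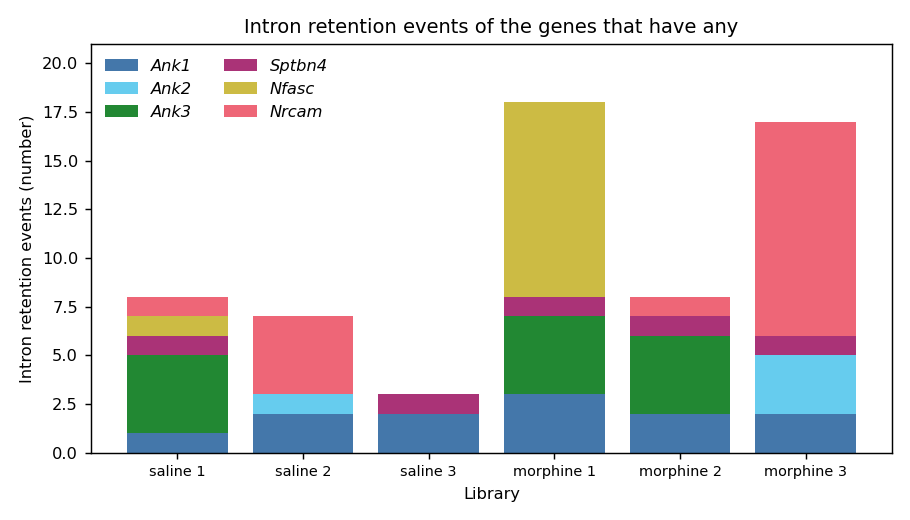
Number of intron retention events (y axis) in each library (x axis), stacked by gene for the 6 genes that had any. The bars of morphine libraries 1 and 3 reach 18 and 17 events, with 10 from Nfasc in the first and 11 from Nrcam in the second, and the other 4 libraries reach 3 to 8.

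No event of the 8 genes was specific to a group, that is, listed throughout 1 group and nowhere in the other. This was 0 of 187 events for morphine, against 0.381% of all events, and 0 of 187 for saline, against 0.277%. Of the 187 events, 113 were listed in both groups. In morphine libraries alone there were 57 (30.5%, against 31.1% of all events), of which 27 and 24 were those of morphine library 1 or 3 alone. In saline libraries alone there were 17 (9.09%, against 25.2% of all events). With at least 2 libraries of a group and none of the other, 6 events were left, 2 for morphine (1.07%, against 3.22% of all events) and 4 for saline (2.14%, against 2.52%). The 2 morphine events were the 24-base exon of Ank2 that is printed above and the start of Sptbn4 at 27416705. The 4 saline events were the 3 described for Ank1 around chr8:23132097-23132634 and the skipping of an exon of 96 bases of Ank2, chr3:127096802-127096897, in saline libraries 1 and 3. These 6 were named after their values were seen. An event that a list lacks may still have occurred in the tissue below what was sequenced or assembled.

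A list of 43 other genes of the spectrin lattice, the axon initial segment and the node of Ranvier was searched as well. All 43 were listed, 42 of them in all 6 libraries. Groups without overlap were found in 0 of 43 in each direction, against 1.8% (morphine above) and 0.966% (morphine below) of all listed genes. Of their 478 events, 124 (25.9%) were in all 6 libraries, against 20.5% over all genes. Epb41, whose product strengthens the bond between spectrin and actin, had 24, 38 and 26 events in saline and 17, 43 and 18 in morphine. Of the 478 events, 1 was specific to saline, an exon end of Epb41 at chr4:131935739-131935867, and 0 to morphine, against 0.277% and 0.381% of all events. Dlg1, which encodes a membrane scaffold protein, had 10, 14 and 11 events in saline and 10, 21 and 19 in morphine. Epb41l2 had 27, 6 and 8 events in saline and 3, 12 and 13 in morphine. For Add1 the counts were 12, 11 and 10 in saline and 11, 11 and 11 in morphine. These genes are shown because they had the most events of the list, with 81 in Epb41, 37 in Epb41l2, 29 in Dlg1 and 24 in Add1. In each of them the groups overlapped.

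Among 741 genes with at least 60 events summed over the libraries, the 3 whose profile over the libraries was most like that of the 8 genes as a whole were Cep70, Celf2 and Rgs11. The measure was the summed absolute difference of the counts divided by their mean, and it was 0.374, 0.395 and 0.413. Celf2, which encodes an RNA-binding protein, had 22, 21 and 18 events in saline and 28, 16 and 26 in morphine.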

How the data were processed

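The authors prepared strand-specific libraries from total RNA, mapped reads with HISAT2 2.0.4 and assembled transcripts with StringTie 1.3.1, and their processing notes also name DESeq 1.10.1. The genome build is not given in the sources used here. The 6 deposited event lists give type, gene, position and strand. Their column called FPKM held whole numbers from -25 to 0 and was not used. The deposited table of differential long non-coding transcripts, with raw read counts and FPKM made by the authors, served only for relative depth, from count over FPKM of 91 values with at least 10 counts. The authors' fold changes and p-values in it were not used, and 0 per-sample columns were left unused.

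Types (20) were grouped into 12 classes and these into 4 families. Included and skipped entries of a place counted as 1 event, set by its class, gene, strand and exon or intron. An event with inexact flanking ends forms a class of its own, so an exon or intron can count more than once. Strand was kept, and 6 of the 187 events lay on the opposite strand of their gene. At least 99.3% of gene identifiers of each library, and all 8 genes, were found in GENCODE M21 on GRCm38, which gave positions, annotation and exon sequences. Positions count from 1. Event numbers of a gene were tested between groups by exact permutation (two-sided) with Benjamini-Hochberg adjustment over all listed genes, after a check on simulated lists. Alternatives are given in the closing section. Events were named by a rule that took annotated events in all 6 libraries, without transcript ends, in gene order, up to 25 of 38. Other events, among them those of Nfasc and Nrcam, were named after their values were seen. Of the list of 43 other genes, the values of some genes are not reported here. The genes and lists were chosen with earlier results of these data known. The software was Python 3.11.15 with pandas 2.3.3, numpy 2.4.6 and, for figures, matplotlib 3.10.9.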

Additional observations from a re-analysis of the deposited data

How the results depend on the processing

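The number of the 8 genes whose groups did not overlap, 0 over all families and in each family, depended on single libraries and on how events were counted. When all coordinates and the pattern identified an event, 1 gene (Sptbn4) did not overlap over all families, as did 3.03% of all listed genes. Per 10000 events of the library, 1 gene (Ank1) did not overlap for transcript ends, as did 4.62% of all listed genes. When each library was left out in turn, the number ran from 0 to 2 over all families and for exon skipping, from 0 to 1 for alternative exon ends and transcript ends, and stayed at 0 for intron retention. Over all families it was 2 without saline library 2 (Sptbn4 and Nrcam) or morphine library 3 (Ank3 and Sptbn4), and 1 without saline library 3 or morphine library 1 (Ank1 both times). With 2 against 3 libraries more genes separate, and over all listed genes 5.94% to 6.78% did so over all families. Of all genes with such events, it was 4.53% to 5.2% for exon skipping and 6.56% to 8.77% for intron retention. For alternative exon ends it was 4.33% to 5.23%, and for transcript ends 3.56% to 4.03%. Group-specific events, 0 with all libraries, ran from 0 to 4 in the same way, with 4 without saline library 3, while 1.82% to 2.19% of all events were group-specific. They numbered 6 when at least 2 libraries of a group and none of the other were asked for. The differences of Ank2 and Nfasc, morphine minus saline, changed sign with single libraries. For Ank2 the range was -1.67 (without morphine library 3) to 4.33 (without morphine library 2), and for Nfasc -1.83 (without morphine library 1) to 7.67 (without morphine library 2). With only events of at least 2 libraries, an alternative chosen after seeing the data, they were -0.667 and -0.333. The cause was not tested. The share of the events of the 8 genes that was in all libraries ran from 32.8% to 37.5% when a library was left out, which asks for 5 libraries in place of 6. No paired analysis was made, since the groups were different mice and no label links a saline library to a morphine library. Depth limits what is listed, and the lists hold no counts, so no interval for a single event can be given.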
